A study of Mus musculus with 8 samples.

Results

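Axon guidance and synaptic genes were examined in mouse neuro2a (N2a) cells after knockdown of Grp94. A gene was taken where any of its symbols started with Sema, Plxn, Efna, Efnb, Ntrk, Robo, Slit, Unc5, Nrxn, Nlgn, Lrrtm, Syt, Cntn, Shank or Dlg, or with Epha, Ephb, Syn or Ntn before a digit. This found 13 transcript clusters with 11 such symbols among the 2395 transcript clusters in the authors' table. A transcript cluster is the group of transcripts that the array reports as 1 value. By their symbols, 4 of the 13 were guidance cues, 3 were taken for guidance receptors and 6 for synaptic proteins.

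N2a cells come from a mouse neuroblastoma and serve widely as a stand-in for neurons. RNA was read on Affymetrix Mouse Gene 1.0 ST arrays, 4 from control cells, labelled Vector knockdown and given in the series' description as empty vector, and 4 from cells that received miR RNAi vectors against Grp94. The product of Hsp90b1, Grp94, folds proteins inside the endoplasmic reticulum. All cells were transiently transfected, and the study's methods name several knockdown constructs and control vectors without saying which was on which array.

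The table gives 1 mean per group and no value per array, so the spread between arrays is unknown here. The authors' own p-values for each row were not used, no error or test was computed for any difference, and 4 arrays a group limit the precision of every value. The means are on a log2 scale and centred by the authors for each transcript cluster, so that no level of expression is kept and genes cannot be ranked by level. A difference is the knockdown mean minus the empty vector mean on this log2 scale. The table holds the transcript clusters that the authors kept from their comparison, by its label after a cut on their p-value, many of them with a small fold. A gene that is not listed therefore has no value and is not shown to be unchanged. Shares over all listed transcript clusters are likewise shares among clusters already chosen as changed. Hsp90b1 itself had a mean of 0.74 with the empty vector and of -0.78 with the knockdown, a difference of -1.52. Of 18 markers of neuroblastoma and neuronal cells, 7 were listed, 4 of them (57.1%) lower and 3 higher. This is near the 59.9% lower among all listed transcript clusters. Among these markers only Dbh, the enzyme that makes noradrenaline, was past a fold of 1.3, with a difference of 0.49. Of all listed transcript clusters, 6.26% were higher past this fold. None of 9 glial markers was listed, and of 4 fibroblast markers only Lum was, with a difference of 0.22. Without levels these markers do not check the cell type.

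Growing axons are steered by secreted or membrane-bound cues, which are read by receptors on the growth cone. Slits signal through Robo receptors. Semaphorins signal through plexins, in part with a neuropilin as coreceptor. At the synapse, synaptotagmins and synapsins work on vesicles and their release, while adhesion proteins such as the leucine-rich LRRTM family join the receiving side to neurexins on the sending side.

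To show the regulatory sequence in front of members that differed, promoter windows of 300 bases around annotated transcript starts were taken from RefSeq (GRCm38.p6) for the member with the largest difference in each role and direction that had an entry. Of the 11 symbols, 8 had an entry, and Slit1, Syt17 and Plxna4 did not. Syt6 has entries, but its transcript clusters are shared with Atg4a, and its promoter is not shown. That of Unc50, which is no guidance receptor, is not shown either. Capitals mark the pentamers CCAAT, the core of the site of the transcription factor NF-Y that the study as a whole was about, and ACGTG, a core of the site of hypoxia-inducible factors, on either strand (ATTGG and CACGT on the printed strand). Sema4g was lower in the knockdown, and Plxnb1 and Syn2 were higher. Syn2 is shown with both of its annotated starts. The windows are chr19:44989094-44989393 (plus strand) for Sema4g, chr9:109095186-109095485 (plus strand) for Plxnb1, and chr6:115134652-115134951 and chr6:115238744-115239043 (plus strand) for Syn2.
Sema4g: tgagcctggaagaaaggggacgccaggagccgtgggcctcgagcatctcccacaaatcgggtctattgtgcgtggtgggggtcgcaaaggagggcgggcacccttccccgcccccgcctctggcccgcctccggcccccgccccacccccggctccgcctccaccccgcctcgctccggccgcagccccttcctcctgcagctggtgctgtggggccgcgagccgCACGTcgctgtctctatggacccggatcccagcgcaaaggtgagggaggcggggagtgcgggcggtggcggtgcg
Plxnb1: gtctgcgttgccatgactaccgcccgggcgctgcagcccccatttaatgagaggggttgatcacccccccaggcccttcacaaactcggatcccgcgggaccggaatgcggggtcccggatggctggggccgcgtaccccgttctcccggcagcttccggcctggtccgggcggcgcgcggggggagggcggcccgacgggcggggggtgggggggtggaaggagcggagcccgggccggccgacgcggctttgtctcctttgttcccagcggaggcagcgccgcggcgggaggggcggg
Syn2, first start: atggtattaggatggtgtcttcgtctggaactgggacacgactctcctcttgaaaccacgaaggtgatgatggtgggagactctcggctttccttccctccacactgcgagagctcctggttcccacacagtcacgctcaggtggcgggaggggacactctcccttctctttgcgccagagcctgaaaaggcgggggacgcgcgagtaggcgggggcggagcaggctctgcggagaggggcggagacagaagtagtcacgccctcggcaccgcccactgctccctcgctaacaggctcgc
Syn2, second start: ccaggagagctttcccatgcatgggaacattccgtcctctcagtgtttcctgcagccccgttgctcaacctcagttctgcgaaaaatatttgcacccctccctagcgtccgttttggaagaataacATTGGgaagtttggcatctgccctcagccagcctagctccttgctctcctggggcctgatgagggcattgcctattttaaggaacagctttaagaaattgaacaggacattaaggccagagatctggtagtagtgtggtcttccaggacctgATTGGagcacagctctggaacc

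The Sema4g window held 1 ACGTG and no CCAAT, the second Syn2 window held 2 CCAAT, and neither pentamer was in the Plxnb1 window or in the first Syn2 window. Among all 13 windows of members, CCAAT was in 3 and ACGTG in 4. These windows include those of Syt6 and Unc50. Of all 32851 windows in the RefSeq table, 37.4% held CCAAT and 19.6% held ACGTG. The windows with CCAAT belonged to Sema6b, Syt1 and Syn2, of which Sema6b was lower and the other two were higher. Those with ACGTG belonged to Sema4g, Sema6b and, at overlapping starts, Syt6. The clusters that name Syt6 are not shown to read it, so the count of ACGTG rests in part on a gene that may not have been measured. A match of 5 letters is a description of the window and not a site in use.

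In the comparison of knockdown with empty vector, 8 of the 13 transcript clusters were lower and 5 were higher. Of all 2395 listed transcript clusters, 59.9% were lower and 40.1% were higher, so that 8 of 13 (61.5%) is near the background. The 8 lower clusters include Unc50, both clusters shared by Atg4a and Syt6, and both clusters of Sema6b. Lower were 6 of 11 (54.5%) without the shared clusters, and 7 of 12 (58.3%) without Unc50. With repeated symbols counted once it was 6 of 11. All of these were not left out together, so the 61.5% rests in part on clusters in doubt. Past a fold of 1.3 there were 3 lower members (Slit1, Syt17 and 1 of the clusters shared by Atg4a and Syt6) and 1 higher member (Syn2), against 16.1% lower and 6.26% higher past this fold among all listed transcript clusters. The median difference was -0.22 for the members and -0.16 for all listed transcript clusters, and the median size of the difference regardless of sign was 0.36 and 0.25. By role, the cues lay on the lower side, both plexins on the higher side and the synaptic proteins on both. With so few genes per role this is a description, and whether the roles differ was not tested.

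**Figure D1:**
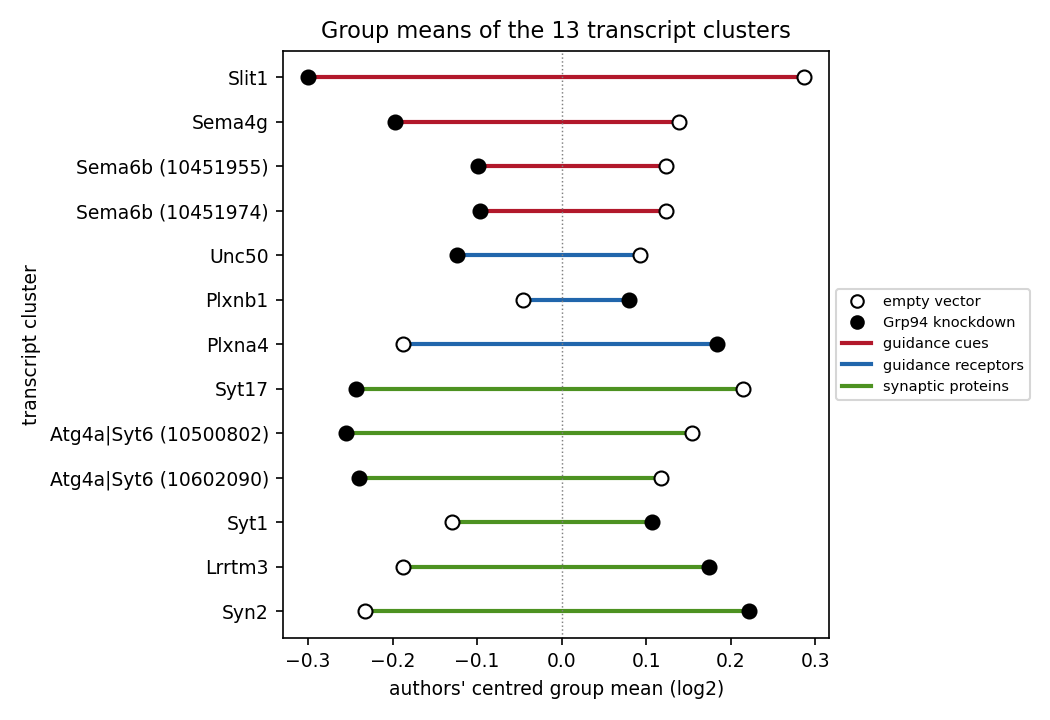
Authors' centred log2 mean of the empty vector arrays (open circles) and of the Grp94 knockdown arrays (filled circles) for each of the 13 transcript clusters, with line colour for the role; each circle is the mean of 4 arrays and no error is known. The filled circle lies to the left for all 4 guidance cue clusters, from Slit1 at -0.30 to Sema6b, and to the right for Plxna4, Plxnb1, Syt1, Lrrtm3 and Syn2.

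All 4 guidance cue clusters, which stand for 3 genes, were lower in the knockdown, beside 59.9% of all listed clusters. So few genes cannot be set apart from that share. Slit1, a secreted ligand of Robo receptors that repels axons, had the largest difference of all members. Its mean was 0.29 with the empty vector and -0.30 with the knockdown, a difference of -0.59 or a 1.5-fold lower signal (read by 37 probes on the minus strand of chromosome 19, 41674747 to 41818346). By size this ranked 159th among the 2395 transcript clusters. Sema4g, a membrane-bound class 4 semaphorin, had means of 0.14 and -0.20, a difference of -0.34 or 1.26-fold (plus strand of chromosome 19, 45063796 to 45077887, 34 probes).

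Sema6b, a transmembrane semaphorin that binds A-type plexins, was read by 2 transcript clusters with the same position (minus strand of chromosome 17, 56262508 to 56272288) and 36 probes each. Both had a mean of 0.12 with the empty vector and of -0.10 with the knockdown, and differences of -0.22 each. They lay within 0.0024 of each other and were read as the same gene, not as separate evidence. Of 20 semaphorin genes in RefSeq, Sema4g and Sema6b were the listed ones, as was Slit1 of 3 Slit genes, while none of the 8 ephrins and none of the 4 numbered netrins was listed.

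Both plexins in the table were higher in the knockdown, beside 40.1% of all listed clusters, a count too small to set apart from that share. Plxna4, a receptor for class 6 semaphorins and, together with neuropilins, for class 3 semaphorins, had a mean of -0.19 with the empty vector and of 0.18 with the knockdown (minus strand of chromosome 6, 32100122 to 32538192, 32 probes). Its difference of 0.37, or 1.29-fold, lay just under the fold of 1.3. Plxnb1, the receptor of Sema4d, had means of -0.05 and 0.08 and a difference of 0.12 or 1.09-fold, the smallest of all members and 2202nd by size among the 2395 transcript clusters (plus strand of chromosome 9, 108998106 to 109022431, 38 probes). Thus Sema6b was lower and Plxna4, a plexin of the type it binds, was higher, with no value here for how the proteins moved.

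The third transcript cluster taken for a receptor was Unc50, which matches the letters of the netrin receptor family Unc5 but encodes an unrelated protein of the Golgi. Its means were 0.09 and -0.12, a difference of -0.22 or 1.16-fold (plus strand of chromosome 1, 37487017 to 37495969, 28 probes). Without it, both remaining receptor clusters were higher and none was lower. No Unc5 receptor (5 genes in RefSeq with that start besides Unc50, Unc5cl included), no Robo (4 genes), no Epha or Ephb receptor (9 and 5 genes) and no Ntrk receptor (3 genes) was listed. Slit1 was thus listed without a Robo. Of the 138 RefSeq genes that meet the rule, 11 were listed, and 17 of 24 families had no listed gene. A family without a listed gene was therefore common here and is no result about that family.

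Synaptic proteins were split, with 3 clusters lower and 3 higher. Syn2, a synapsin that tethers vesicles in the reserve pool, had the largest positive difference of all members. Its mean was -0.23 with the empty vector and 0.22 with the knockdown, a difference of 0.45 or 1.37-fold (plus strand of chromosome 6, 115084920 to 115232014, 32 probes). Syt1, the calcium sensor of fast transmitter release, had means of -0.13 and 0.11 and a difference of 0.24 or 1.18-fold (minus strand of chromosome 10, 107934708 to 108448009, 36 probes). Both of these proteins act on synaptic vesicles, and both were higher.

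Lrrtm3, a postsynaptic adhesion protein that binds neurexins, had means of -0.19 and 0.17 and a difference of 0.36 or 1.29-fold (minus strand of chromosome 10, 63391245 to 63553003, 25 probes). None of the 3 neurexins, 3 neuroligins, 3 Shank, 5 Dlg or 6 contactin genes in RefSeq was listed. In GRCm38 Lrrtm3 overlaps Ctnna3 and Syn2 overlaps Timp4, and whether an overlapping gene adds to either value was not tested.

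Syt17, a member of the synaptotagmin family, was lower. Its mean was 0.21 with the empty vector and -0.24 with the knockdown, a difference of -0.46 or 1.37-fold (minus strand of chromosome 7, 125525370 to 125591332, 28 probes). Syt17 and Syt1 thus stood on opposite sides of 0, and of the 17 Syt genes in RefSeq they and Syt6 were the listed ones.

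The table names Syt6 together with Atg4a, a protease of autophagy, in 2 transcript clusters that carry the same transcript identifiers. The cluster on the minus strand of chromosome 3 (103448756 to 103449946, 27 probes) had means of 0.15 and -0.25, a difference of -0.41 or 1.33-fold. The cluster on the plus strand of chromosome X (137491456 to 137598813, 32 probes) had means of 0.12 and -0.24, a difference of -0.36 or 1.28-fold. In RefSeq, Syt6 lies on the plus strand of chromosome 3, opposite to the first cluster, and overlaps the pseudogene Atg4a-ps, while Atg4a lies on the plus strand of chromosome X like the second. Neither cluster is therefore shown to read Syt6, and without them 1 of 4 synaptic clusters was lower and 3 were higher. These clusters also had the least even means of all members. The sum of their means was -0.10 and -0.12, against a median size of 0.02 over all listed clusters, and 3.84% and 1.67% of all listed clusters had a larger one.

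**Figure D2:**
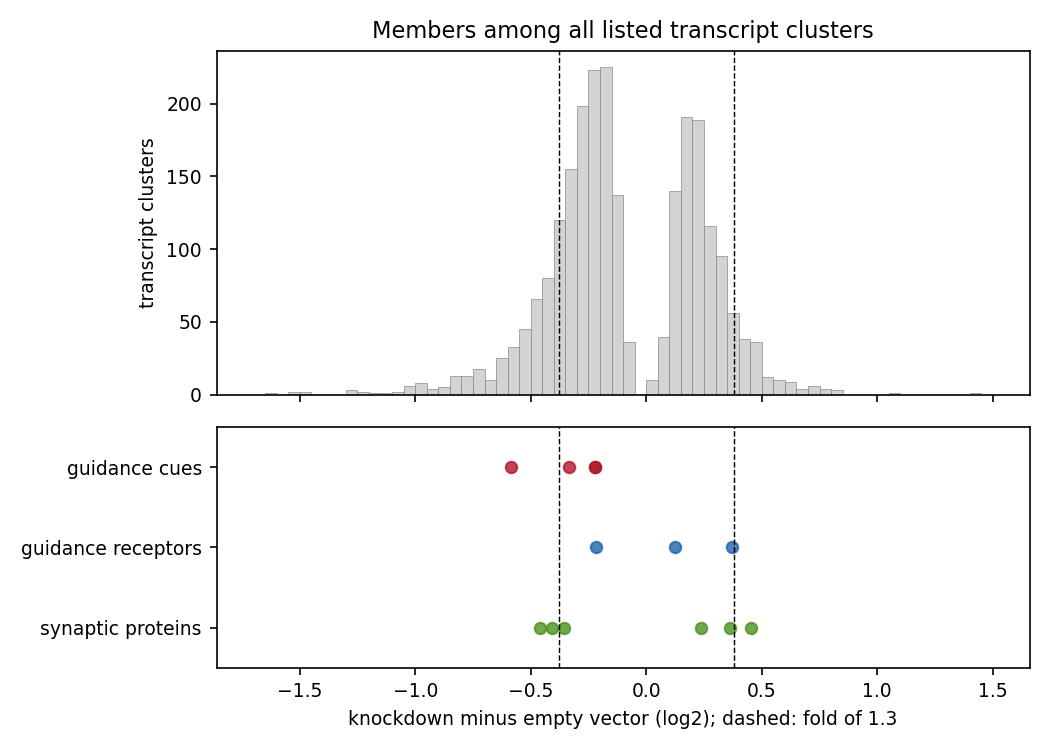
Number of listed transcript clusters (upper panel, all 2395) and the members by role (lower panel, 1 point per transcript cluster) along the log2 difference of knockdown minus empty vector, with dashed lines at a fold of 1.3 in each direction. The gap around 0 in the upper panel goes with a table limited to the transcript clusters that the authors kept from their comparison, and the guidance cues lie between -0.59 and -0.22 while both plexins lie above 0.

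The table holds 1 internal measure of repeatability, which is how closely several transcript clusters of the same symbols followed each other. This applied to 73 symbols or symbol combinations, of which 72 had all of their clusters on the same side of 0, with a median range of 0.02 and a 90th percentile of 0.11. Such clusters read the same RNA and may share probes, so this is no error between cultures. Each had also been kept by the authors, by the label after a cut on their p-value, which favours the same side of 0 beforehand. The difference of Plxnb1 (0.12) was little above that 90th percentile, but a difference between groups and a range between clusters are unlike measures. A larger difference is not thereby shown to exceed the spread between arrays, which is unknown here.

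The zero point bears on these values. Relative to the median of all listed transcript clusters (-0.16), Slit1 was at -0.42, Syt17 at -0.29, Sema4g at -0.17 and Sema6b at -0.06, while Plxnb1 was at 0.29, Syt1 at 0.40, Lrrtm3 at 0.53, Plxna4 at 0.54 and Syn2 at 0.62. No member changed its side of 0. Past a fold of 1.3 there were then 1 lower and 4 higher members in place of 3 and 1, and 159 lower and 527 higher transcript clusters in the whole table in place of 385 and 150. The median of the transcript clusters that are not listed is unknown, so neither zero point is shown to be the right one.

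Other genes of these pathways were followed in 5 lists of genes outside the symbols above. The lists were chosen with earlier results known. Lgi1, Ache, Sncb, Sncg, Vamp2 and Mpp2 had been read among the study's changed genes, so the counts below are descriptions and no independent evidence. Of 58 genes of synaptic vesicles and release, 16 were listed in 17 transcript clusters, and all 17 were lower (median difference -0.21), beside 59.9% of all listed clusters. Past a fold of 1.3 were Sncb (-0.998) and Sncg (-0.71), which are synucleins, Vamp2 (-0.62), the vesicle SNARE of transmitter release, Sv2a (-0.39), a vesicle membrane protein, and Syngr3 (-0.38), a synaptogyrin. These 5 of 17 clusters stand beside 16.1% lower past this fold among all listed clusters. Sncb, Sncg and Vamp2 were among the genes read beforehand, which leaves Sv2a and Syngr3. The 5 are therefore no excess over that share. Of the synaptotagmins and synapsins among the members, Syt17 was lower like this list, while Syt1 and Syn2 stood on the higher side, where no gene of this list did. Unc13a, a priming factor, had clusters at -0.32 and -0.18, a range of 0.14.

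Of 36 other guidance receptors and coreceptors, 7 were listed, with 1 lower and 6 higher (median 0.25), beside 40.1% higher among all listed clusters. Nrp1, the neuropilin that works with A-type plexins, had a mean of -0.21 with the empty vector and of 0.19 with the knockdown, a difference of 0.41. Ptprs, a receptor phosphatase of axons and synapses, had a difference of 0.40. These were the list's clusters past a fold of 1.3, beside 6.26% higher past this fold among all listed clusters. Nrp1 and Plxna4 can form a receptor together, and their differences were 0.41 and 0.37. Ptprs (0.40) and Lrrtm3 (0.36) had values of like size. Whether Nrp1 and Plxna4 changed together was not tested.

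Of a list of 24 genes drawn up as other cues and neurotrophins, 3 were listed and all 3 were lower (median -0.24). This stands beside 59.9% of all listed clusters, a count too small to set apart from that share. The 3 were Lgi1, Ntng2 (named with 6530402F18Rik, -0.24) and Ptn (-0.22). They were counted by their place in the list alone and are not shown to act as guidance cues here. Lgi1, a secreted synaptic protein that binds ADAM22, had means of 0.55 and -0.70 and a difference of -1.26, which is 2.39-fold and larger than that of any member. It was the only cluster of this list past a fold of 1.3, beside 16.1% lower past this fold among all listed clusters. Lgi1 had been read beforehand, so its place past the fold was already known. Of 62 genes of guidance signalling and of the growth cone, 13 were listed, 8 lower and 5 higher (median -0.18). This split is near the background. None was past a fold of 1.3, beside 16.1% lower and 6.26% higher past it among all listed clusters.

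Of 62 other postsynaptic and synaptic adhesion genes, 7 were listed in 13 transcript clusters, 5 of them lower and 8 higher (median 0.36), beside 59.9% and 40.1% of all listed clusters. Past a fold of 1.3, 3 were lower and 6 were higher, beside 16.1% and 6.26%. Ache (-1.04), the esterase that breaks down acetylcholine, Mpp2 (-0.60), a scaffold of the membrane-associated guanylate kinase family, and Apba1 (-0.39), an adaptor, were lower past a fold of 1.3. Ache and Mpp2 had been read beforehand, so the 3 lower clusters are no excess over 16.1%. All 8 higher clusters belonged to the latrophilins Lphn1 and Lphn2, adhesion receptors for FLRT proteins and teneurins. The 6 past a fold of 1.3 all name Lphn2, and those that name Lphn1 (0.35 and 0.36) lay under this fold. Lphn2 alone had a cluster at 0.45, and 5 further clusters that name it with LOC100048050 lay between 0.51 and 0.62. By genes, 5 were lower and 2 were higher, so the count by transcript clusters rests on repeated reading of Lphn2.

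**Figure D3:**
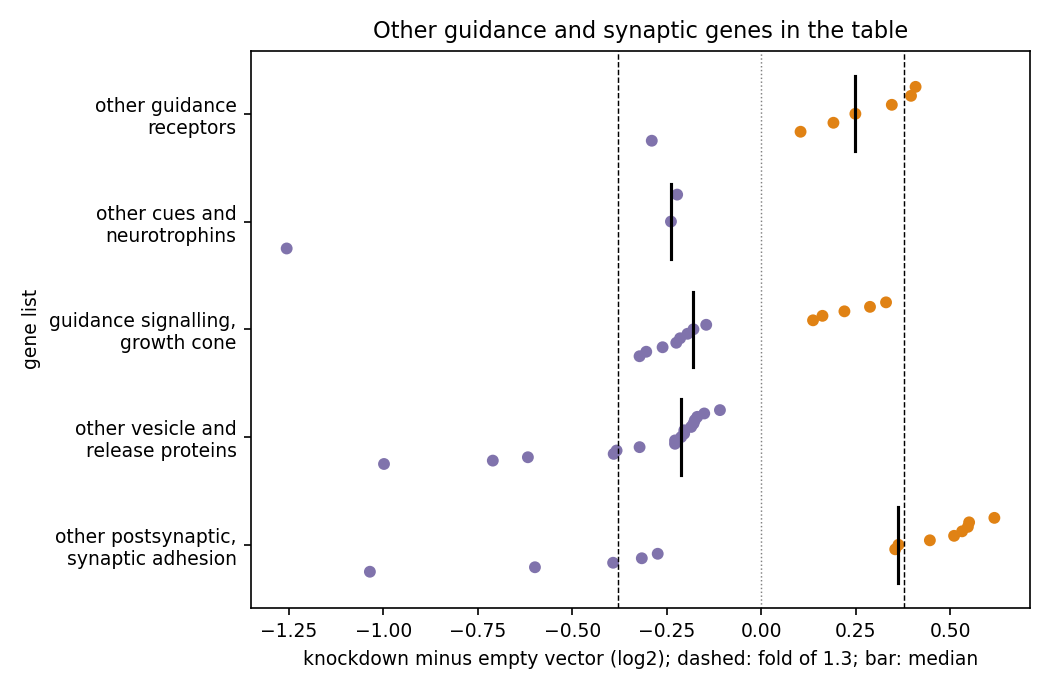
Log2 difference of knockdown minus empty vector for every listed transcript cluster of the 5 further gene lists, lower in purple and higher in orange, with the list's median as a bar and dashed lines at a fold of 1.3. All 17 vesicle and release clusters lie below 0, whereas 6 of 7 other guidance receptors lie above it.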

How the data were processed

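N2a RNA was run on 8 Affymetrix arrays (4 a group, grouped by sample title). The authors analysed them in GeneSpring GX and left out genes of low expression. The authors deposited 1 log2 mean per group, centred for each transcript cluster. How probes were summarized, how arrays were normalized and which genome build gave the positions are not given in the sources used here. Whether the arrays came from separate cultures is not stated either. The table also holds the authors' own fold changes, directions, p-values and q-values, which were not used beyond settling that the scale is log2.

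The difference of both log2 means was computed for every row in Python 3.11.15 (numpy 2.4.6, pandas 2.3.3, scipy 1.17.1, matplotlib 3.10.9), and transcript clusters past a fold of 1.3 were counted. Group means alone allow no test against the spread between arrays. Shares carry exact 95% binomial intervals, which cover counting alone and served to compare alternatives. The scripts were tested on simulated data. Promoters and overlapping genes came from RefSeq by symbol.

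The members, lists and thresholds were chosen with earlier results of these data known, and the first rows of the changed genes in the study's supplement, which hold Lgi1, Ache, Sncb, Sncg, Vamp2, Mpp2 and Slit1, had been read. Every member was named, as were other pathway genes and markers past a fold of 1.3. Alternatives changed the fold, the unit of counting, rows of several symbols, the zero point and the families counted. Leaving out Unc50, counting repeated symbols once and all alternatives for the further lists were chosen after seeing the data.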

Additional observations from a re-analysis of the deposited data

How the results depend on the processing

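No paired analysis was possible because the table gives 1 mean per group, and for the same reason no array could be left out. In place of 4 members past a fold of 1.3, there were 8 (5 lower and 3 higher) past 1.2 and 1 (Slit1) past 1.5, as follows from the threshold. The shares of all listed transcript clusters past 1.2 and 1.5 were not computed, so these 2 counts cannot be set against a background. Re-centring on the median of all listed transcript clusters gave 5, with 1 lower and 4 higher. The share of receptor clusters that were lower, 33.3% with Unc50 counted, was 0% without Unc50 and 0% among those past a fold of 1.2, where Plxna4 was the only cluster left. The shares of cues, synaptic proteins and all members stayed within the exact interval of the reported share under each alternative run. These intervals were 39.8% to 100%, 11.8% to 88.2% and 31.6% to 86.1%, too wide for this to show stability. The share of synaptic proteins that were lower, 50%, was 25% without rows of several symbols and 60% among those past a fold of 1.2. No Sytl, Slitrk, Dlgap or contactin gene was listed, so the alternatives on these families changed nothing. Of the further lists, vesicle and release proteins were 88.2% lower after re-centring, and postsynaptic and synaptic adhesion proteins were 71.4% lower, in place of 38.5%, without clusters of several symbols. The values per role rest on 3 to 6 transcript clusters and on means of 4 arrays.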
